A study of Drosophila melanogaster with 3 samples.

Results

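Binding of the Runx-family transcription factor Lozenge (lz) was examined at 10 genes of the Wingless pathway, out of 13968 protein-coding genes annotated on the main chromosome arms. The genes were taken by name: the ligand gene wg, the receptor genes fz, fz2 and fz3, the co-receptor gene arr, and the intracellular genes dsh, Axn, arm, pan and nkd. The data are ChIP-seq peak lists from whole *Drosophila melanogaster* of both sexes, collected as white prepupae at the onset of metamorphosis; the label for age reads unknown. All animals were of 1 transgenic line that stably expresses Lozenge with GFP at its C-terminal end, and an anti-GFP antibody was used for precipitation. Lozenge is known for its roles in eye cell fates and in the crystal cells of the blood. The samples were 3 biological replicates of this 1 group, with no second condition, and no untagged or input control was analysed here. Each gene was taken with its Ensembl span on dm6 plus 1 kb to either side, and each peak was placed by its summit. Peaks were ranked by the authors' signal value within each list, rank 1 being the highest; the thresholded set held 8048 peaks, and each replicate list and the pooled list held 30000 calls, with read depth unknown.

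In this pathway the secreted ligand Wingless binds a Frizzled receptor together with the co-receptor Arrow, and Dishevelled carries the signal inside the cell. Without ligand, a complex built on the scaffold Axin marks Armadillo, the fly beta-catenin, for degradation. With ligand, Armadillo accumulates and joins the HMG-box protein Pangolin (pan, the fly TCF) on target genes, among which nkd and fz3 are well-known feedback genes. The pathway patterns the imaginal discs of the wing, leg and eye.

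Of the 10 genes, 6 had at least 1 thresholded peak, where 38.1% of all protein-coding genes did. They were fz, fz2 and arr with 11 peaks each, nkd with 8, fz3 with 3 and arm with 1, a total of 45. The receptor and co-receptor genes together held 36 of them. These include fz and fz2, which at 94.3 and 94.4 kb have the longest spans of the 10 genes. No thresholded peak lay at wg, dsh, Axn or pan. At the same number of peaks per replicate, replicates 1, 2 and 3 had a peak at 6, 6 and 7 of the 10 genes, where 40.5%, 34.6% and 38.1% of all protein-coding genes had one. The mean over replicates was 6.33 ± 0.577 genes and 48.0 ± 1.73 peaks (SD, n = 3). The gene added in replicate 3 was pan, with 1 peak of rank 7836. The median was 2 peaks per pathway gene and 0 per protein-coding gene. Because the chromatin came from whole animals, binding in few cells and weak binding in many cells cannot be told apart, and a gene without a peak may still be bound in a small group of cells.

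The 101 bases around 8 summits are shown because they hold the strongest peak or peaks of fz, fz2, fz3, nkd and arm and the peak at the start site of nkd. The second peaks of fz3 (rank 1670) and nkd (rank 1010) are not shown, and neither window holds a searched word. The windows shown thus hold a word more often than the 45 do. No window of arr is shown, although its peak of rank 396 is the strongest of the 45; that window holds a GATA word starting 27 bases past the summit. The 8 windows shown are on the plus strand of dm6, from the RefSeq genome, and none of them touches an annotated exon. Capitals mark the words searched for on both strands. The Runx word was any of AACCACA or AACCGCA or GACCACA or GACCGCA, and the core that the HMG box of pan is known to bind was CTTTGA. For GATA factors the word was any of AGATAA or AGATAG or TGATAA or TGATAG. For the GAGA factor it was the shorter word GAGAG, and for the DNA replication-related element it was TATCGATA. No word contains another.
fz, rank 594 (chr3L:14364845-14364945): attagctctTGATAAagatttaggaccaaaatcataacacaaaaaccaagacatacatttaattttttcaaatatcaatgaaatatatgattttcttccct
fz, rank 598 (chr3L:14303985-14304085): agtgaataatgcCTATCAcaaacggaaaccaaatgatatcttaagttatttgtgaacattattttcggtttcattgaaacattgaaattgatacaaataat
fz2, rank 837 (chr3L:19172528-19172628): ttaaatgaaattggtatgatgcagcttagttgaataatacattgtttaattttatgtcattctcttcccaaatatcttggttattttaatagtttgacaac
fz2, rank 1048 (chr3L:19194210-19194310): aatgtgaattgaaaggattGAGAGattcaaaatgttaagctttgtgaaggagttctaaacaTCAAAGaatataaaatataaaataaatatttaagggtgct
fz3, rank 1495 (chrX:769808-769908): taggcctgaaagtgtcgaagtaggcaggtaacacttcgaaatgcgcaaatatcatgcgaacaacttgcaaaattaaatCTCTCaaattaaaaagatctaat
nkd, rank 632 (chr3L:19042587-19042687): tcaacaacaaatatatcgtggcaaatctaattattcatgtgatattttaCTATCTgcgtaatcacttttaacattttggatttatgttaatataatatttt
nkd, rank 2039 (chr3L:19045552-19045652): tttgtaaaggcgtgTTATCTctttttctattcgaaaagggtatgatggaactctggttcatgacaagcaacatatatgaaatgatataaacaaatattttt
arm, rank 3001 (chrX:1897495-1897595): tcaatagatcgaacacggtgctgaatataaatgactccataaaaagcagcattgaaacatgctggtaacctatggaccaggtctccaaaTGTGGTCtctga

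The single Runx word among all 45 windows was the one at arm, on the minus strand, starting 39 bases past the summit. It made 2.22% of the windows at pathway genes and 2.68% of all 8048 thresholded windows. The HMG core was in 4 of the 45 windows (8.89%, against 6.78% of all), at fz2, arr and nkd. A GATA word was in 11 (24.4%, against 22.2%) and GAGAG in 8 (17.8%, against 9%, which is 724 of all 8048). TATCGATA was in none, and in 1.60% of all windows. No searched word was found in 24 of the 45 windows, among them the fz2 peak of rank 837. The median G and C content was 29.7% at the pathway genes and 32.7% over all thresholded windows. These matches were described only; no test was made, and windows of 1 gene share their locus.

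The 3 Frizzled receptor genes differed in where their peaks sat. The gene fz (FBgn0001085, chromosome 3L, 14274343 to 14368639), which also acts in planar cell polarity, spans 94.3 kb with 1 annotated start site. All 11 of its peaks were more than 20 kb downstream of that start, the nearest at 23316 bp. Intron 1 (29.2 kb) held 3 and intron 4 (49.4 kb) held 8. The highest peak (14364742 to 14365077, intron 4) ranked 594, and 608, 732 and 499 in replicates 1, 2 and 3. The second (14303904 to 14304244, intron 1) ranked 598, and 606, 949 and 420. The first and the last fz summit were 67.2 kb apart. These peaks stood above the rest of the gene in every replicate, as the next peak ranked 2169, and 2451, 2336 and 2262 in the replicates. Support was weakest at the peak of rank 7849, whose nearest start site is that of the nested gene CG13482. It ranked 9241, 27529 and 5987 in the replicates, so that only replicate 3 held it among its highest 8048.

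The gene fz2 (FBgn0016797, chromosome 3L, 19140975 to 19235373), encoding the high-affinity Wingless receptor, spans 94.4 kb and has 3 start sites. Its 11 peaks were spread over 34.2 kb, from 41113 to 75272 bp past the 5' end of the span, and 6 of them lay within 5 kb of an fz2 start site. Intron 5 of the longest transcript (25.0 kb) held 8 peaks. The highest (19172398 to 19172784) ranked 837, and 922, 651 and 981 in replicates 1, 2 and 3. It lies 1930 bp upstream of the nearest fz2 start site. Another, 682 bp away, ranked 1477, and 1705, 1659 and 1100. The peaks of rank 1048 and 1049, in introns 4 and 6, ranked 1449, 1153 and 726, and 1186, 1352 and 912. At an internal fz2 start site a weaker peak (rank 6929, summit 40 bp upstream) ranked 6865, 24740 and 5031, so replicate 2 had it only as a low call. The lowest fz2 peak, of rank 7960, ranked 5724 and 6171 in replicates 1 and 2 and had no call within 100 bp in replicate 3.

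The gene fz3 (FBgn0027343, chromosome X, 769945 to 784222), a receptor gene that Wingless signalling itself induces, spans 14.3 kb. It had 3 peaks, all matched in all 3 replicates. The highest (769741 to 770003) has its summit 87 bp upstream of the first start site and ranked 1495, and 1344, 1902 and 1504 in the replicates. The second, in the intron 2345 bp upstream of the nearest fz3 start, ranked 1670, and 1708, 2125 and 1492. The third ranked 3240, and 2476, 3826 and 3454. The first and second peaks overlapped in rank over the replicates, and the third was below both in each replicate.

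**Figure D1:**
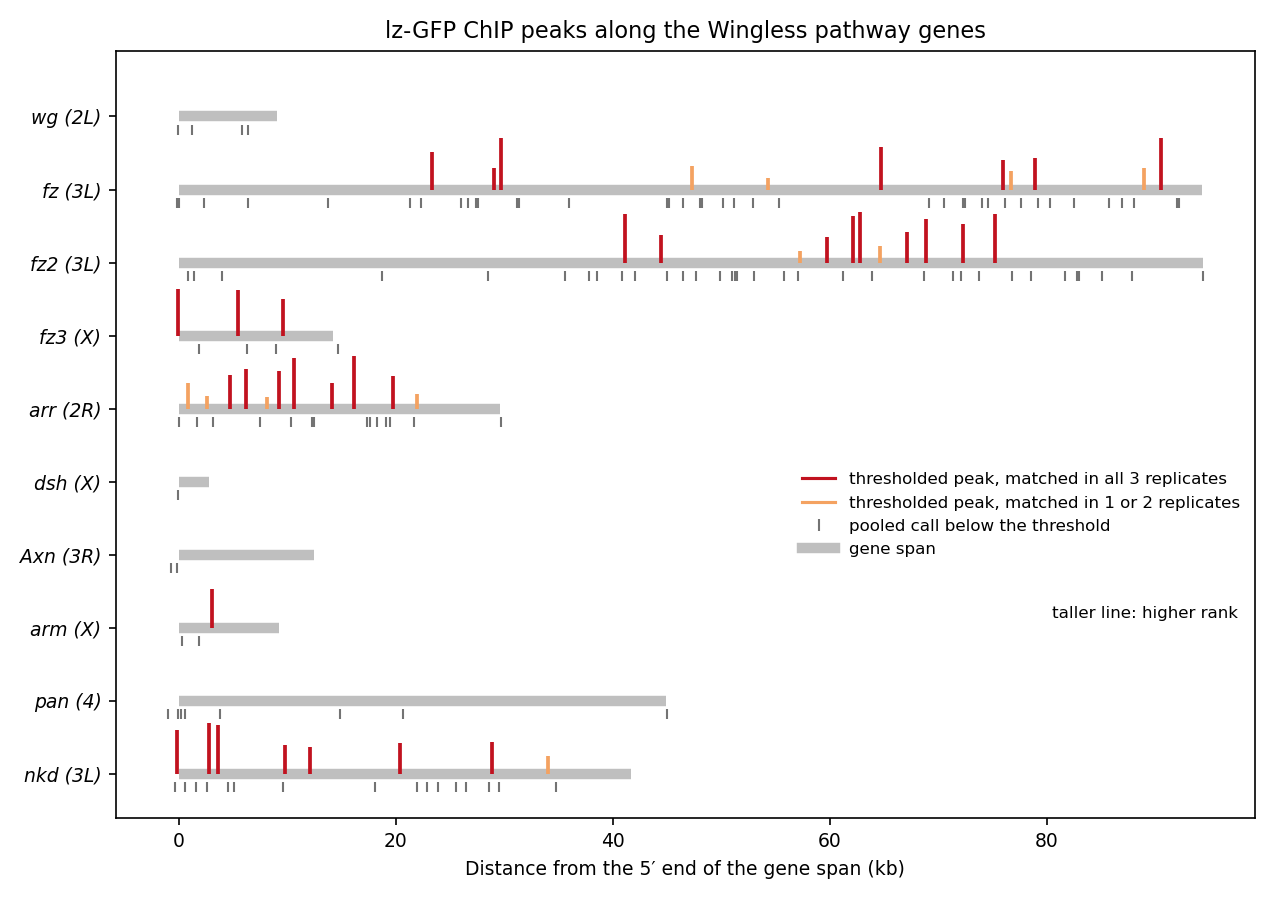
Map of the 10 Wingless pathway genes, each drawn 5′ to 3′ from the start of its span (x axis, kb; chromosome arm in brackets). Vertical lines are thresholded peaks, taller for stronger ones, red where matched in all 3 replicates and orange where matched in 1 or 2, and ticks under the span are pooled calls below the threshold; fz, fz2 and arr carry 11 peaks each and wg, dsh, Axn and pan carry none.

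The co-receptor gene arr (FBgn0000119, chromosome 2R, 13453640 to 13483229) had the densest peaks. Its 11 peaks in 29.6 kb make 3.48 per 10 kb of span and margin. That was denser than in 98.6% of the 1397 genes in the longest decile of protein-coding genes, whose median was 0.467. The decile is broad, from 14.7 to 1966 kb, with a median span of 29.1 kb. Of the 11, 10 lay in intron 2 (22.2 kb), at a median distance of 1968 bp between neighbours over the whole gene. The highest peak (13466888 to 13467255) ranked 396, and 424, 529 and 366 in replicates 1, 2 and 3, and was the highest of the 45 peaks at the 10 genes in the thresholded set, and of the peaks at these genes in each replicate. The second ranked 791, and 842, 841 and 704. Its summit is 10597 bp inside the gene. The peak of rank 2689 lies 366 bp upstream of the start of CG43192, and 9 of the 11 peaks had the start site of another gene, CG43192 or Golgin97, nearer than that of arr. Each replicate held 11 peaks at arr, but 7 of the thresholded peaks were matched in all 3. The one of rank 7869 was among the highest 8048 only in replicate 1, where it ranked 5326, with 9992 and 12885 in the others.

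The gene nkd (FBgn0002945, chromosome 3L, 19003741 to 19045449) encodes a feedback inhibitor that binds Dishevelled. It spans 41.7 kb, and its 8 peaks include 3 of high rank at its 5' end. The summit of 1 peak is 153 bp upstream of the start site; it ranked 2039, and 2286, 2268 and 1717 in the replicates. The highest (19042476 to 19042871) is 2812 bp inside and ranked 632, and 543, 779 and 653. A neighbour 780 bp further in ranked 1010, and 1301, 856 and 866. Intron 1 (33.2 kb) held 7 of the 8 summits. Of these, the peak of rank 5155 falls on an exon of the nested non-coding gene lncRNA:CR45940. The replicates held 11, 11 and 9 peaks at nkd, and 7 of the 8 thresholded peaks were matched in all 3.

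The gene arm (FBgn0000117, chromosome X, 1891401 to 1900646), encoding the beta-catenin Armadillo, had 1 peak (1897530 to 1897639), in intron 2 and 1979 bp downstream of the nearest arm start site. It ranked 3001, and 4921, 2466 and 2593 in replicates 1, 2 and 3. It is the window with the Runx word. A call at another arm start site, 132 bp upstream of it, ranked 11538 in the pooled list, below the threshold, and was matched in replicate 2 alone, at rank 8553.

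**Figure D2:**
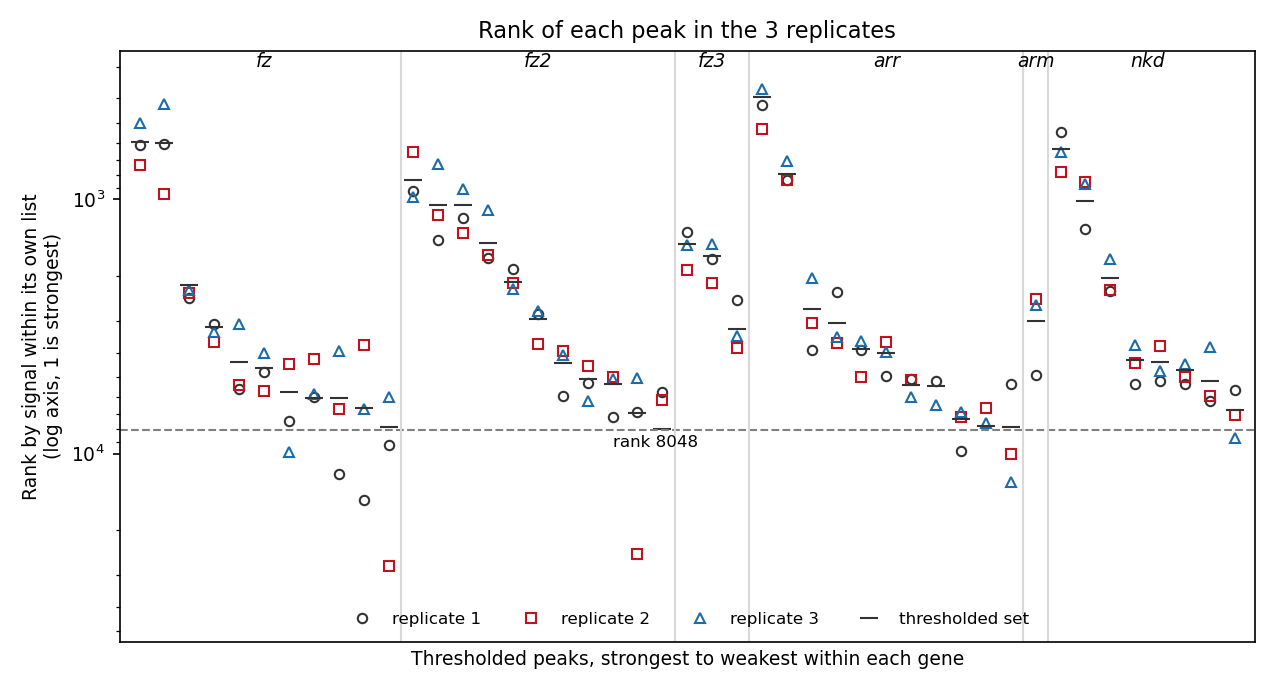
Rank by signal (log y axis, 1 strongest) of each of the 45 thresholded peaks in the thresholded set (bars) and in replicates 1 to 3 (symbols), ordered by strength within each gene; a missing symbol is a replicate with no call within 100 bp. The dashed line is rank 8048; the lowest symbols are replicate 2 at the fz peak of rank 7849 (27529) and at the fz2 peak of rank 6929 (24740).

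Most of the 45 peaks were matched in the replicates. The thresholded set was called on the pool of these same 3 replicates, so the matches and rank correlations below are not independent support. Summits within 100 bp were found among the highest 8048 peaks of all 3 replicates for 34 of the 45 (75.6%), and for 65.0% of all thresholded peaks. The remaining 9 were matched in 2 replicates and 2 in 1. All 12 peaks of rank up to 2000 were matched in all 3 replicates, as were 97.4% of thresholded peaks of that rank in the genome. Below that rank the share was 66.7% at the pathway genes and 54.3% over the genome. Of the 45, 42 had a call in the full list of every replicate. Across those 42 peaks, which are not independent replicates, Spearman's rho of the ranks was 0.874 to 0.895 for the 3 pairs of replicates. The median rank of the pathway peaks was 4016, and that of all thresholded peaks was 4024.5. If a match in both other replicates was asked for when replicate 1, 2 or 3 was left out, 9, 7 and 8 peaks remained at fz and 9, 8 and 7 at arr.

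In position the pathway peaks differed from the whole set as follows. Within 500 bp of any start site lay 4 of the 45 summits (8.89%), against 42.6% of all thresholded summits. Introns outside such windows held 40 (88.9%), against 38.5%. The promoter summits were those at fz3, nkd and fz2 and the one at CG43192 inside arr. A start site of the gene itself was the nearest for 18 of the 45, and another gene's for 27. These are shares of peaks of 6 loci, taken only within a gene span or 1 kb of it. The whole set had no such limit, and 16.5% of its summits were intergenic. The 2 sets were thus chosen differently, and the difference was not tested. Long genes have more room for peaks, and 5 of the 10 pathway genes, fz, fz2, arr, nkd and pan, belong to the longest decile of span, where 68.1% of genes had a peak and the median was 1. In that decile 96.3% of genes had fewer peaks than fz, fz2 or arr, and 91.7% had fewer than nkd. Most genes of the decile are much shorter than fz and fz2, which span 94.3 and 94.4 kb, as its median span is 29.1 kb. Per 10 kb, fz and fz2 had 1.14 peaks each, above 77.1% and 77.0% of the decile, and nkd had 1.83, above 89.6%. In the ninth decile 88.3% of genes had fewer peaks than fz3, and 43.4% had fewer than arm.

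**Figure D3:**
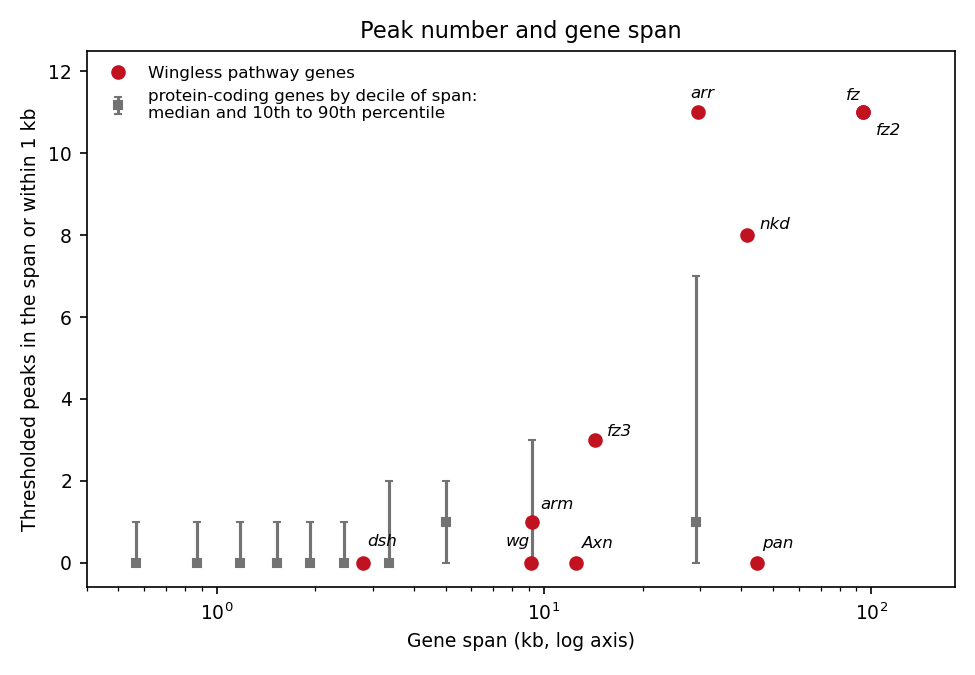
Thresholded peaks per gene (y axis) against gene span in kb (log x axis). Red points are the 10 Wingless pathway genes and grey squares with bars are the median and the 10th to 90th percentile of all protein-coding genes by decile of span; fz, fz2, arr and nkd, at 8 to 11 peaks, lie above the 90th percentile of 7 in the longest decile, and pan lies at 0.

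The 4 genes with no thresholded peak still had calls in the pooled list of 30000, which touched all 10 pathway genes and 62.3% of protein-coding genes. The ligand gene wg (FBgn0284084, chromosome 2L, 7307159 to 7316265) had 4 such calls. The strongest, in an intron, ranked 10721 and matched calls of rank 9184, 10581 and 15235 in replicates 1, 2 and 3. The next, of rank 13331, has its summit 24 bp upstream of the wg start site and was matched in replicates 1 and 3, at 9393 and 16048. At dsh (FBgn0000499, chromosome X, 11355881 to 11358724), which encodes Dishevelled, the only call ranked 10405, with its summit 69 bp upstream of the start. It was matched in replicates 1 and 3, at 11347 and 12448, and replicate 2 had no call at the gene. The strongest call of replicate 1 at dsh was another one, of rank 8935. At pan (FBgn0085432, chromosome 4, 69326 to 114270) there were 8 calls in 44.9 kb. The strongest ranked 11483, 31 bp upstream of a pan start site, with 11586 and 7836 in replicates 1 and 3 and no match in replicate 2, whose strongest call elsewhere at pan ranked 11173. At Axn (FBgn0026597, chromosome 3R, 30022842 to 30035311) both calls lay upstream of the gene, at ranks 14039 and 14514, nearest to the start sites of Mgat2 and RpS28a. The call of rank 14514, with its summit at 30022718, also lies within 500 bp of the 5' end of Axn. The strongest pooled call of these 4 genes was thus the one of rank 10405 at dsh, while the weakest top rank among the other 6 genes was 3001, at arm.

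**Figure D4:**
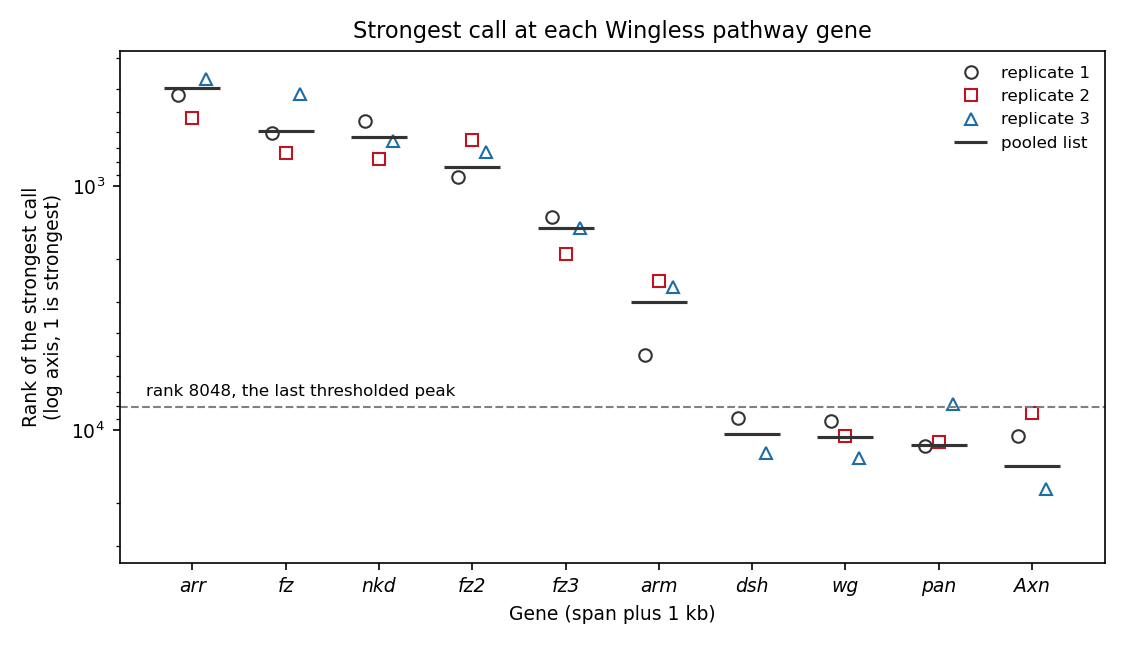
Rank of the strongest call (log y axis, 1 strongest) within 1 kb of each of the 10 genes in the pooled list (bars) and in replicates 1 to 3 (symbols). Values for arr, fz, nkd, fz2, fz3 and arm lie above the dashed line at rank 8048 in every replicate; those for dsh, wg, pan and Axn lie below it except for pan in replicate 3, and dsh has no call in replicate 2.

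Just outside the 1 kb margin each of these 4 genes had a thresholded neighbour. With 5 kb to either side all 10 genes had a peak, as did 59.4% of protein-coding genes. Downstream of wg, 3889 bp past its end, an intergenic peak (7320032 to 7320276) ranked 2421, and 2080, 2680 and 2128 in the replicates. Upstream of dsh, at 4339 bp, a peak of rank 436 (430, 492 and 466 in the replicates) lies in an intron of CG1737. The peak nearest to pan, 2025 bp upstream, is 94 bp upstream of the start of the ribosomal protein gene RpS3A and ranked 1731, with 1232, 2246 and 2361. That nearest to Axn, 1560 bp upstream in an intron of Mgat2, ranked 7114, with 7605, 8292 and 7991. The nearest peaks to dsh, pan and Axn thus lie in or at the start of another gene.

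Around these genes, 29 of 42 further genes of the pathway, in 7 lists by role, had a thresholded peak, where 38.1% of all protein-coding genes did; replicates 1, 2 and 3 gave 31, 28 and 29. All 8 genes on the list for the destruction complex and cytoplasmic kinases had one in the span or within 1 kb, with 8, 7 and 8 in the replicates. Without replicate 1 or 3 the count was 7, since the peaks of slmb had no match among the 8048 highest of replicate 2. With the gene span alone Apc, Apc2, slmb and Tnks had no peak, as their peaks lay in the 1 kb margin. The genes slmb, Apc and Tnks were named here after their values were seen. The casein kinase gene gish had 1 peak of rank 48, and sgg, encoding the GSK-3 kinase that phosphorylates Armadillo, had 6 with a top rank of 122. The casein kinase gene dco had 3 with a top rank of 1202, and Apc2 had 1 of rank 1970. Genes in the span deciles of this list had a peak in 50.5% to 68.1% of cases. Among nuclear cofactors 5 of 6 had a peak, with the top rank at 186 for the corepressor gene gro, 604 for the acetyltransferase gene nej, 1466 for CtBP and 4034 for lgs, which bridges Armadillo and pygo; pygo had none.

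Outside the cell, 4 of 6 genes of Wnt secretion and spreading had a peak. The glypican gene dlp had 9 with a top rank of 805, its relative dally had 8 with a top rank of 2305, the deacylase gene Notum had 2 with a top rank of 2119, and the cargo receptor gene wls had 1 of rank 2543. No peak lay at por or Swim. Of the other Wnt ligand genes 4 of 6 had one, with top ranks of 1933 at Wnt4, 1953 at Wnt10, 2386 at Wnt2 and 3754 at Wnt6, and none at Wnt5 or wntD. Of 4 other receptor genes drl had 3 peaks (top rank 1026), dnt 5 (1067) and Drl-2 1 (2664), and fz4 had none. In planar polarity, where fz and dsh act without Armadillo, 3 of 4 partner genes had a peak, stan with 3 (top rank 1547), pk with 2 (3588) and dgo with 1 (7634), and Vang had none. Of 8 reported Wingless targets 2 had a peak: bi had 4 peaks with a top rank of 1409 and Dll had 2 with a top rank of 6107, while H15 and ac were among those without. These counts stand beside the share of 38.1% of all protein-coding genes with a peak, and beside shares that vary with span. In the span deciles of the listed genes the share was 20.3% to 68.1% for the targets, 27.8% to 68.1% for the ligands and 37.7% to 68.1% for secretion and spreading. It was 50.5% to 68.1% for the other receptors and 42.8% to 68.1% for both the polarity genes and the nuclear cofactors. No list was tested against these shares. The only peak of lgs, of wls and of Drl-2 lay outside the gene span, in the 1 kb margin. Under the same rule on matches, the peaks without replicate 1, 2 and 3 numbered 5, 4 and 2 at dally, 4, 3 and 4 at sgg, 4, 2 and 3 at dnt and 1, 1 and 1 at Wnt6. They were 0, 1 and 1 at Dll, so that 1 of the 8 reported targets had a peak without replicate 1. At dgo they were 0, 1 and 0, which leaves 2 of the 4 polarity genes without replicate 1 or 3.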

How the data were processed

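The labels describe sonicated chromatin from 3 numbered biological replicates with separate biological materials. Per the labels' file lists, the dm6 calls derive from each replicate's alignment, or from all 3 for the pooled list, and from 1 further file whose kind they do not name. Aligner, caller and threshold level: not given in the sources used here. Signal is the authors' value per peak, on a scale that is not stated, so it was used for ranks within a list alone. The −log10 q-value, which the authors deposited beside it, has 1 value for all 8048 thresholded peaks. Those equal the 8048 highest pooled peaks. The dm3 lists were not used.

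Ensembl gene models and the RefSeq genome were used; all 10 spans were identical in both annotations and every peak ended within its chromosome. Coordinates are 1-based. Each replicate was limited to its 8048 highest peaks, and summits within 100 bp matched. A promoter summit lay within 500 bp of any start site. Genes were binned in 10 deciles of span. The members, the lists and the motif words were chosen with earlier results of these data known. The named genes were all members, up to 4 genes per further list by top rank, and up to 2 without a peak, the first by name. With 1 group there was no test between conditions; counts of peaks and genes are a description, and no read counts were available for counting error. Alternatives covered the gene margin, the 4024 strongest peaks, replicate matching, the promoter window and leaving out each replicate. Counting and matching were tried on simulated data first. Python 3.11.15, numpy 2.4.6, pandas 2.3.3 and matplotlib 3.10.9 were used.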

Additional observations from a re-analysis of the deposited data

How the results depend on the processing

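The 6 genes with a peak were the same 6 with the gene span alone, among the 4024 strongest thresholded peaks, with peaks matched in all 3 replicates and without replicate 1, 2 or 3. Leaving out a replicate only asked for a match in both other replicates. The thresholded list itself was still the one called on all 3 pooled, so the peaks were not called anew without that replicate. With 5 kb to either side the count was 10. The nearest peak that enters at dsh, pan and Axn lies in or at another gene, and the nearest at wg is intergenic. Any further peaks that enter were not placed. The 45 peaks at the members became 23 among those 4024, 43 with the span alone, 57 with 5 kb, 45 with 1 summit per interval and 36 to 38 with 1 replicate left out. The 34 peaks matched in all 3 replicates became 20 when each replicate was limited to its 4024 highest peaks, 24 at 50 bp, 34 at 200 bp and 42 against all calls; fewer or more candidates per replicate make that change by construction. The 4 promoter summits became 7 with a window of 1 kb and 3 with 250 bp. The count of further pathway genes with a peak, 29, ranged from 22 with the span alone to 34 with 5 kb, and from 26 to 29 with 1 replicate left out. No paired analysis was possible because the replicates form 1 group. Read depth is unknown, so a call missing in 1 replicate cannot be told apart from a shallower library.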

Other observations

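The genes nkd and fz2 are near neighbours on chromosome 3L, 95.5 kb apart, and together hold 19 of the 45 pathway peaks. The interval between them, beyond 1 kb of either gene, held 7 more thresholded peaks and 12 protein-coding genes, and the highest of those 7 peaks ranked 1083. The nearest summits within a gene were 620 bp apart at fz, 682 bp at fz2, 780 bp at nkd, 1106 bp at arr and 4186 bp at fz3. These pairs ranked 598 and 6025 at fz, 837 and 1477 at fz2, 632 and 1010 at nkd, 3049 and 7869 at arr, and 1670 and 3240 at fz3. In the thresholded set the pairs at fz2 and nkd hold the strongest peak of their gene, and those at fz, arr and fz3 do not. Single replicates differed. The fz pair held the strongest fz peak in replicates 1 and 3 (606 and 420), and the fz3 pair that of fz3 in replicate 3 (1492). In replicate 3 the strongest fz2 peak was the one of rank 1048 (726 there), outside the pair.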
